A study of Mus musculus with 5 samples.

Results

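The cells described here were progenitors of basophils and mast cells in mouse bone marrow. They were chosen from the Lin-kit+ cells, which carry the Kit receptor and lack the surface antigens of mature lineages. A cell was taken as a member when it held at least 1 UMI (unique molecular identifier, 1 per captured transcript) of 3 or more of Prss34, Mcpt8, Cpa3, Ms4a2 and Fcer1a, and at least 10 UMIs of these 5 genes together. Of 11581 Lin-kit+ cells, 421 were members and 11160 were other cells. The 5 genes chose the members, so their levels are given as a description, with no test.

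Basophils and mast cells are granulocytes that store histamine and proteases in granules and carry the high-affinity receptor for IgE. Binding of antigen to the IgE on this receptor starts a signal through its subunits and adaptor proteins that ends in the release of granules, lipid mediators and cytokines. Both arise in the marrow from progenitors that use GATA factors. Basophils are released as mature cells into blood, whereas mast cells complete their maturation in tissues. Prss34 and Mcpt8 encode serine proteases of basophil granules. Cpa3 encodes carboxypeptidase A3, a granule protease of mast cells and their progenitors. Fcer1a and Ms4a2 encode the alpha and beta subunits of the IgE receptor.

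Since the members were defined by these 5 genes, and transcripts of Gata2 and Runx1 were also higher in them, the 250 bases before the start of each gene are shown with the motifs known for both factor families. Cd200r3, which encodes an activating receptor of basophils and mast cells and had a UMI in 38.2% of the members, was added. The sequences are the RefSeq promoters of GRCm38.p6, in the direction of transcription, and all 6 genes were matched. Capitals mark the GATA motif, searched as AGATAA and also as TGATAA, and the RUNX motif, searched as TGTGGT, on both strands.
Prss34, chr17:25298144-25298393, + strand: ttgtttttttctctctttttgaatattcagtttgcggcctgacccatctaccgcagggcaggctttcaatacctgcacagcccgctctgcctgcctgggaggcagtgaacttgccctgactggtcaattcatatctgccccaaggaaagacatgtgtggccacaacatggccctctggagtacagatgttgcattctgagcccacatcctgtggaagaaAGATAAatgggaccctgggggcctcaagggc
Mcpt8, chr14:56085198-56085447, - strand: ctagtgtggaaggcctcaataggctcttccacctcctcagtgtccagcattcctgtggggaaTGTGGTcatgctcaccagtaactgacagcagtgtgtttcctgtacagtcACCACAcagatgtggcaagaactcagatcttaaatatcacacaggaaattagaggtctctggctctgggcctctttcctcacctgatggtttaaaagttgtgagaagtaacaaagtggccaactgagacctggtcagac
Cpa3, chr3:20242182-20242431, - strand: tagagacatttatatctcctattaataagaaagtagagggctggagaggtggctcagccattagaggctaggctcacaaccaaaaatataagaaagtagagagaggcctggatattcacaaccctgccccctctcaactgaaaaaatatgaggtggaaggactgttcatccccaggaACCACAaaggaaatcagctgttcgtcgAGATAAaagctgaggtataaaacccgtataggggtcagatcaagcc
Ms4a2, chr19:11623720-11623969, - strand: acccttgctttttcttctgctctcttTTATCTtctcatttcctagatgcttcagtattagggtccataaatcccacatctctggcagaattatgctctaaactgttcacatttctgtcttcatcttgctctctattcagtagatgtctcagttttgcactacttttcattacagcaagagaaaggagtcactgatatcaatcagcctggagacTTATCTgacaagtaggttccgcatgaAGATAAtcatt
Fcer1a, chr1:173227230-173227479, - strand: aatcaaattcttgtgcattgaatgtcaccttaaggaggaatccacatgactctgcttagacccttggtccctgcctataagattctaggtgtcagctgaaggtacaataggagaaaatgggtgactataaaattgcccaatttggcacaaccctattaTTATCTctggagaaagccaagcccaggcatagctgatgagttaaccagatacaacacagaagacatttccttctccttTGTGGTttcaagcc
Cd200r3, chr16:44943428-44943677, + strand: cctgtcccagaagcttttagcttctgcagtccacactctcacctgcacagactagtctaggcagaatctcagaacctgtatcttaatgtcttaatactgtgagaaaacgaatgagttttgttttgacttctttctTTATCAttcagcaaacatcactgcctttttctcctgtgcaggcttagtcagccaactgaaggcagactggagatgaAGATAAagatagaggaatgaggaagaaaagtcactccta
A GATA motif lay in 5 of the 6 windows and a RUNX motif in 3. In Prss34 the 1 GATA motif began 31 bases before the start. Mcpt8 held 2 RUNX motifs and no GATA motif, and Ms4a2 held 3 GATA motifs, of which the nearest began 11 bases before the start. Cpa3 and Fcer1a held 1 motif of each kind. Among all 32851 promoter windows of this length, 16.6% held a GATA motif, 14.0% a RUNX motif and 2.70% both. A match is a string of letters and does not show that a factor was bound.

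The marrow came from untreated mice of 20 weeks that carried Fgd5CreERT2/+ and Rosa26Tomato/+, alleles shared by every sample, so no group lacked them. Single-cell libraries made from sorted Lin-CD45.2+ cells with Kit were compared, in the study, with cells positive for the ZsGreen reporter that is expressed from Fgd5, a gene of haematopoietic stem cells. The deposited table holds UMI counts of 15287 genes in 12893 cells of 5 libraries that it names only by number. The Lin-kit+ libraries, called a, b and c here, were told from the reporter-positive ones by their cell numbers. The number of mice and whether the libraries came from separate mice are not stated. With library as a block, p-values measure how far the difference between the compared groups of cells varies from library to library, which may be technical.

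Libraries a, b and c held 10000606, 18683092 and 36080242 UMIs. Members had a median of 5378, 2996 and 4068 UMIs, fewer than the 6684.5, 4472 and 5586 of other cells. Thinning to 2000 UMIs kept only cells with at least that many. It left out 2, 12 and 6 members and 22, 406 and 212 other cells of libraries a, b and c. In the thinned cells, the medians were 850, 845 and 850 genes in members and 870.5, 870 and 875 in other cells. Mitochondrial transcripts made up a median of 2.86% to 3.01% of the UMIs of members and 3.17% to 3.25% of those of other cells. Scrublet, run per library, called 12 members doublets (2.85%) against 1.26% of other cells. Of the cell barcodes, 63 occurred in more than 1 library, and 4 members carried such a barcode.

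Members made up 57 of 1339 cells in library a, 121 of 4095 in library b and 243 of 6147 in library c. Their shares were 4.26% (95% Wilson interval 3.30 to 5.48), 2.95% (2.48 to 3.52) and 3.95% (3.49 to 4.47), with a mean of 3.72% ± 0.681 (SD, n = 3 libraries). The interval of library b did not reach the share of library c. Intervals cover counting error only. In the Fgd5+ and HSC-Fgd5+ cells, the reporter-positive sorts without and with the stem cell surface phenotype, 0 cells met the rule. A floor of 3 counts allows shares of up to 0.378% and 0.578%, and the upper ends of the Wilson intervals were 0.482% and 0.735%. The sample labels disagree on which of both had the additional stem cell gate. These 1312 cells together held 0 UMIs of Prss34 and Ms4a2, 3 UMIs of Mcpt8 in 1 cell, 5 of Cpa3 and 2 of Fcer1a.

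All 5 genes were found in 293 members (69.6%), 4 in 83 and 3 in 45. The 2 receptor subunits and Cpa3 were the most evenly detected. Cpa3 was found in 98.2%, 98.3% and 98.8% of the members of libraries a, b and c, Ms4a2 in 96.5%, 93.4% and 95.5%, and Fcer1a in 94.7%, 93.4% and 92.6%. The proteases of basophil granules were missing more often. Prss34 was found in 82.5%, 85.1% and 81.1% and Mcpt8 in 93.0%, 92.6% and 87.7%. Of the 421 members, 74 had no Prss34 UMI and 30 had neither protease.

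The protease transcripts spanned the widest range. A member at the median held 61, 52 or 54 UMIs of Prss34 in libraries a, b and c, and the highest members held 807, 509 and 570. For Mcpt8, the medians were 53, 50 and 47 UMIs and the highest members held 516, 384 and 386. Cpa3 ranged less, with medians of 12, 7 and 11 UMIs and a highest value of 49. Summed over members, Prss34 stood at 19714, 28240 and 24218 CPM (UMIs per 1000000 UMIs of the same cells), against 3.20, 7.28 and 8.84 CPM in other cells. Among other cells, 4.03% had a UMI of Prss34 and 8.26% of Mcpt8, at a median of 5216 UMIs per cell, against 82.4% and 89.8% of members at 3881, and these shares include free RNA, whose part was not tested.

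The 5 genes together made up between 0.089% and 25.0% of the UMIs of a member, with a median of 3.25%. The medians were similar in libraries a, b and c, at 3.12%, 3.70% and 2.89%. The share of the 5-gene UMIs that came from Prss34 and Mcpt8, called the protease share here, had a median of 84.3% and exceeded 50% in 315 members (74.8%). The proteases are most of the 5-gene UMIs, so a high 5-gene level and a high protease share are linked by construction. Members of each library were ordered by 5-gene level into 4 level groups of like size. In the lowest group, 34.6%, 39.3% and 23.9% of the pooled 5-gene UMIs came from Prss34 and Mcpt8 in libraries a, b and c, and in the highest group 93.6%, 92.6% and 92.4%. From the lowest to the highest group, Cpa3 went from 1339, 1424 and 1248 CPM to 3818, 5320 and 5100 CPM, and Fcer1a from 1075, 880 and 624 CPM to 3204, 4224 and 3828 CPM. Ms4a2 differed least, from 1046, 932 and 651 CPM to 818, 1182 and 1108 CPM.

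**Figure D1:**
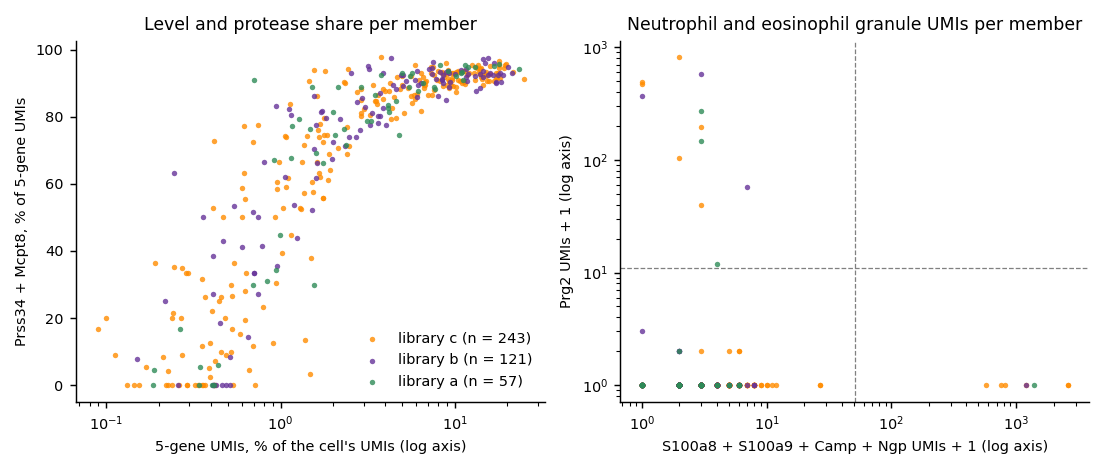
Each point is 1 of the 421 members, coloured by library. Left, 5-gene UMIs as a percentage of the cell's UMIs (log axis) against the percentage of them from Prss34 and Mcpt8, which lies above 50% in 315 members. Right, UMIs of 4 neutrophil genes plus 1 against UMIs of Prg2 plus 1 (log axes, dashed lines at 50 and 10 UMIs before the 1 was added), where 8 members lie to the right of the vertical line, 12 others above the horizontal line and 0 beyond both.

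Just below the limit of 10 UMIs lay 39 cells with 3 or more of the genes and 5 to 9 UMIs, and just above it 41 members with 10 to 14 UMIs. Pooled Cpa3 stood at 771 CPM in the former and 1084 CPM in the latter, Ms4a2 at 526 and 692 CPM, and Prss34 at 98.1 and 135 CPM. Lmo4, a gene the rule did not read, stood at 1297 and 1131 CPM, and Gata2 at 140 and 217 CPM. Of the granule genes of other lineages, Prg2 and S100a8 differed more, with Prg2 at 11595 CPM below and 0 CPM above the limit, and S100a8 at 9260 and 316 CPM. Elane, at 876 and 774 CPM, Mpo, at 1795 and 1998 CPM, and Ctsg, at 932 and 1471 CPM, differed less than these. A further 75 cells had 10 or more UMIs from fewer than 3 genes, with 0 CPM of Prss34, 5975 CPM of Elane and 243 CPM of Lmo4. Mcpt8 stood at 1161 CPM and Cpa3 at 1147 CPM in them, against 293 and 1084 CPM in the members with 10 to 14 UMIs. These values are a description of the limit, with no test.

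Genes outside the rule were compared between the members and all other Lin-kit+ cells of the same library, in counts summed per library. The rule did not read these genes, but a pass says only that a gene differs between cells so picked. CPM for these genes were computed with the 5 rule genes left out. Of 10092 genes tested with edgeR's quasi-likelihood test, 2630 (26.1%) passed an adjusted p of 0.05, 1331 higher (13.2%) and 1299 lower (12.9%) in members. At least 2-fold changes that passed numbered 630 higher (6.24%) and 614 lower (6.08%). The median log2 fold change of all genes tested was -0.0044. Shares of lists below are to be read against these percentages, and every list was chosen with earlier results of these data known. In summed counts, more cells with a transcript and more transcripts per cell cannot be told apart.

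The 10 largest fitted rises were those of Alox15, Cyp11a1, Cd200r3, Cdh1, Rnase12, Gpr34, Il6, Csf1, Gm11697 and Rab19. Alox15, a lipoxygenase, held 58 UMIs in members, at 22.3, 34.9 and 34.7 CPM in libraries a, b and c, and 0 in other cells, which against a floor of 3 counts summed over all other cells made it at least 683-fold higher. Cyp11a1, the enzyme that starts steroid hormone synthesis from cholesterol, stood at 194, 212 and 197 CPM in members and 0.103, 0.274 and 0.114 CPM in other cells (log2 fold change 10.15, standard error 0.22, adjusted p = 6.49e-260). An annotated noncoding gene overlaps its exons on the same strand. Cd200r3 stood at 140.1, 239.6 and 192 CPM against 0.207, 0.219 and 0.372 CPM (log2 fold change 9.25, standard error 0.20, adjusted p = 7.81e-251). Cdh1, which encodes E-cadherin, an adhesion molecule, stood at 54.1, 54.9 and 44.1 CPM against 0.103, 0.274 and 0.114 CPM. All 3 libraries had more of each of these 4 genes in members than any library had in other cells. The 4 were picked for large rises of the same sign in each library, so this follows largely from the choice. Rnase12, a member of the ribonuclease A family, had a log2 fold change of 7.45 (standard error 0.12), at 535, 552 and 472 CPM against 1.96, 2.63 and 3.12 CPM.

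The 10 largest fitted falls were those of 4930438A08Rik, Klf4, Ly6d, Ifi205, Cd180, Amica1, Upb1, Mrgpra2a, Fcgrt and Prss16, each with 0 UMIs in the members. Mrgpra2a lost its call without library c (adjusted p = 0.0576). Klf4, a transcription factor of monocytes, stood at 16.6, 15.2 and 16.4 CPM in the other cells of libraries a, b and c, and Ly6d, a surface marker of lymphoid progenitors, at 14.9, 12.8 and 11.0 CPM. Against a floor of 3 counts over the members, Klf4 was at least 9.57-fold lower, Ly6d at least 7.19-fold, 4930438A08Rik at least 13.5-fold and Prss16 at least 4.60-fold. Ifi205 belongs to a family of close copies, so its counts are uncertain.

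Of 38 transcription regulators tested, 14 rose in members, 7 fell and 17 did not pass. Gata2, a factor required for basophil and mast cell development, stood at 392, 314 and 265 CPM in libraries a, b and c against 16.9, 17.1 and 14.6 CPM in other cells (log2 fold change 4.21, standard error 0.11, adjusted p = 1.18e-203). Gata1, its relative in erythroid, megakaryocytic and mast cells, rose less, from 11.7, 15.0 and 15.6 to 57.3, 57.4 and 44.1 CPM (log2 fold change 1.70, standard error 0.20). Cebpa, a factor of myeloid fate, stood at 73.2, 74.9 and 29.1 CPM against 11.6, 11.2 and 8.64 CPM and Runx1 at 140.1, 117 and 77.8 CPM against 34.1, 25.0 and 22.4 CPM. Both were lowest in the members of library c, which still lay above other cells of the same library.

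Lmo4, a LIM-domain cofactor, stood at 974, 1148 and 949 CPM in members against 78.5, 88.4 and 72.3 CPM (log2 fold change 3.63, standard error 0.06). Ikzf2, which encodes the zinc finger protein Helios, rose with a log2 fold change of 4.0 (standard error 0.11) and Ets1 with one of 3.30 (standard error 0.20). Factors of neutrophils and of monocytes and dendritic cells were among those that fell. Irf8, required for monocytes and dendritic cells, stood at 6.37, 64.9 and 42.2 CPM in members against 457, 419 and 412 CPM in other cells (log2 fold change -3.42, standard error 0.11). Cebpe, a factor of late granulocytes, stood at 44.6, 29.9 and 51.6 CPM against 258, 268 and 301 CPM. Spi1, which encodes PU.1, fell by 1.03 on the log2 scale (standard error 0.21, adjusted p = 1.2e-05). Its levels overlapped across libraries, at 63.7, 29.9 and 10.3 CPM in members and 130.0, 42.6 and 24.2 CPM in other cells, and its adjusted p was 0.35 in the fit without library as a block. Gfi1 had 4 UMIs in members, and its fall (adjusted p = 0.0125) no longer passed without library a or b.

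Of 36 cytokine and surface receptors tested, 20 rose, 10 fell and 6 did not pass. Il1rl1, the IL-33 receptor of mast cells and basophils, stood at 47.8, 49.9 and 39.4 CPM in members against 0.930, 2.14 and 2.0 CPM (log2 fold change 4.51, standard error 0.29). Il3ra, the alpha subunit of the receptor for IL-3, a growth factor of basophils, stood at 127, 97.3 and 49.7 CPM against 29.5, 24.5 and 17.6 CPM. Csf2rb, the beta subunit shared by the IL-3, IL-5 and GM-CSF receptors, rose with a log2 fold change of 1.91 (standard error 0.15) and Csf2rb2, the beta subunit for IL-3 alone, with one of 3.39 (standard error 0.39). Csf2rb and Csf2rb2 are close copies, so reads may have been lost or split between them.

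Among the other receptors, Itga2b, the integrin subunit CD41 that is also a megakaryocyte marker, stood at 108, 112 and 87.2 CPM against 10.0, 8.38 and 8.10 CPM (log2 fold change 3.45, standard error 0.17). Ccr1, a chemokine receptor, stood at 57.3, 92.3 and 75.0 CPM against 2.69, 2.57 and 3.35 CPM, and Fcgr3, a low-affinity IgG receptor, at 512 to 532 CPM against 166, 169.7 and 184 CPM. Each of these 3 lay higher in members of every library. Among the 10 receptors that fell were Csf1r, Csf3r and Flt3. Csf1r, the monocyte receptor for M-CSF, had 5 UMIs in members and stood at 24.9, 21.6 and 20.1 CPM in other cells. Csf3r, the neutrophil receptor for G-CSF, had 3 UMIs in members, a ratio to other cells of between 0.0146 and 0.208 by the exact counting interval. Flt3, of multipotent and dendritic progenitors, fell by 1.68 on the log2 scale (standard error 0.41), a call that was lost without library c.

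Kit, the receptor on which the cells had been sorted, did not pass, at 22.3, 44.9 and 27.2 CPM in members and 28.3, 30.0 and 27.2 CPM in other cells. The fitted log2 difference was 0.06 with a standard error of 0.21, an interval that includes changes of either sign. Cd34, a marker of early progenitors, was slightly lower, at 105, 89.8 and 101 CPM against 124, 119 and 118 CPM (log2 fold change -0.32, standard error 0.12, adjusted p = 0.0252). It lost its call without library b or c, after thinning to 2000 UMIs (adjusted p = 0.162) and with DESeq2 (0.137). The call was also lost with library totals, without the library block, and against other cells without those with 2 or more of the 5 genes.

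Of 19 genes of IgE receptor signalling tested besides the rule genes, 7 rose, 0 fell and 12 did not pass. The 7 were Fcer1g, Fyn, Lat, Lat2, Gab2, Stx3 and Vamp8. Fcer1g, the gamma chain that the receptor shares with other Fc receptors, stood at 1283, 1505 and 1269 CPM in members and 659, 661 and 712 CPM in other cells (log2 fold change 0.93, standard error 0.06, adjusted p = 1.87e-45). Lat, the adaptor of the activated receptor, rose further, from 9.20, 12.1 and 10.6 to 98.7, 84.9 and 114 CPM (log2 fold change 3.23, standard error 0.16). Lat2, a related adaptor, stood at 226, 294 and 245 CPM against 66.1, 66.1 and 69.5 CPM. Lyn, the kinase at the receptor, stood at 19.1, 39.9 and 30.9 CPM in members and 39.0, 44.5 and 40.8 CPM in other cells (log2 fold change -0.47, standard error 0.20, adjusted p = 0.0669), and passed as lower after thinning to 2000 UMIs (log2 fold change -0.95), without a filter on low counts, and with at least 20 UMIs or at least 4 of the 5 genes in the rule for members. After thinning, 5 of 15 genes of the list rose and 1 fell, with a median log2 fold change of 0.0041. Syk and Btk, the kinases that follow it, were among the 12 that did not pass.

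**Figure D2:**
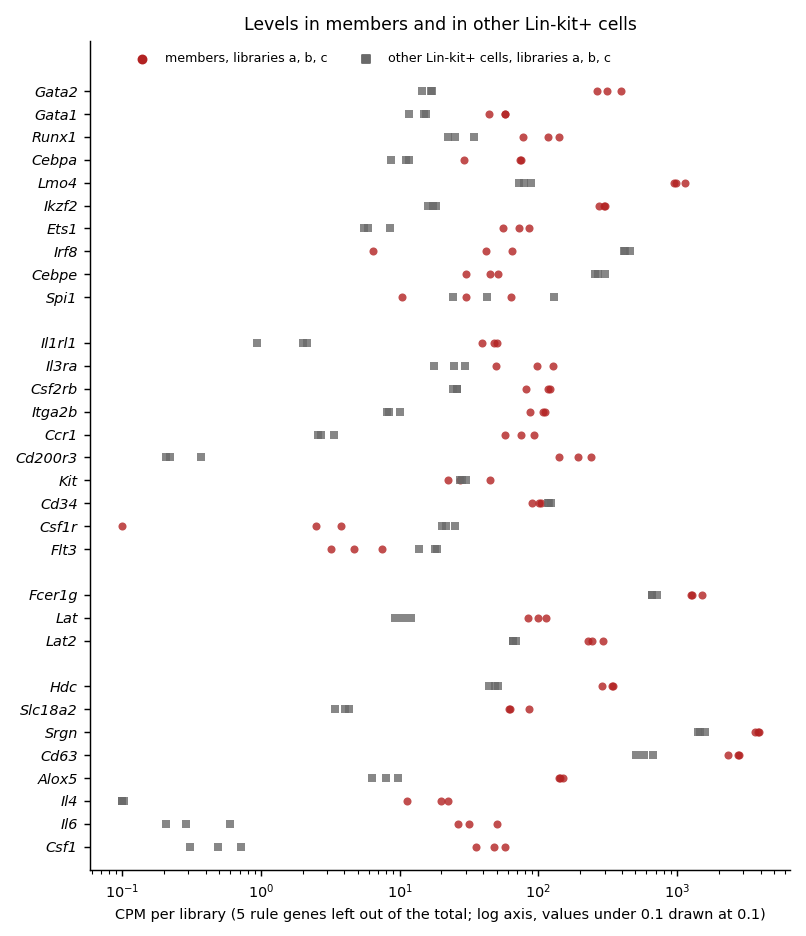
Levels of 31 named genes outside the rule (CPM, log axis) in members (circles) and in other Lin-kit+ cells (squares), 1 point per library. Gata2, Lmo4, Ikzf2, Cd200r3 and Il1rl1 lie apart in all 3 libraries, Kit overlaps, and Irf8, Cebpe, Csf1r and Flt3 lie lower in members.

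Among 13 genes of granule content tested, 10 rose and 3 fell, with a median log2 fold change of 1.85. Without 20 members that carried many granule transcripts of other lineages, described further on, 8 rose and 5 fell, with a median of 0.58, and Prg2 and Prg3 were the 2 that turned. Prg2 had itself picked 12 of these members, and other Lin-kit+ cells were not cut in this way. Hdc, the enzyme that makes histamine, stood at 338, 287 and 348 CPM in members against 43.8, 49.0 and 51.2 CPM (log2 fold change 2.69, standard error 0.09). Slc18a2, the transporter that loads histamine into granules, stood at 86.0, 62.4 and 61.9 CPM against 3.41, 4.05 and 4.32 CPM (log2 fold change 3.97, standard error 0.22). Srgn, the proteoglycan core that binds granule proteases, rose from 1420, 1472 and 1591 to 3640, 3856 and 3870 CPM, and Cd63, a granule membrane protein used as a marker of basophil activation, from 503, 580.1 and 667 to 2344, 2793 and 2752 CPM. These 4 were higher in members of each library. Serpinb1a, an inhibitor of neutrophil proteases, fell by 1.58 on the log2 scale (standard error 0.08), and Prss57 and Lgals3 also fell.

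Of 9 lipid mediator enzymes tested, 4 rose, 2 fell and 3 did not pass. Alox5, which starts leukotriene synthesis, stood at 143, 149.7 and 141 CPM in members against 6.31, 8.0 and 9.70 CPM (log2 fold change 3.99, standard error 0.14), and its partner Alox5ap at 672, 639 and 636 CPM against 377, 387 and 412 CPM. The 2 that fell were Lta4h and Ptgs1. Lta4h, which makes leukotriene B4, fell by 1.62 on the log2 scale (standard error 0.10) and Ptgs1, a cyclooxygenase, by 2.42 (standard error 0.31).

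Cytokine and chemokine genes rose in 9 of 12 cases tested, with 0 lower and 3 not passed, and a median log2 fold change of 2.84. Il4, the cytokine that basophils are known to secrete, had 27 UMIs in 27 members, at 22.3, 20.0 and 11.2 CPM in libraries a, b and c, and 4 UMIs in all other cells (log2 fold change 7.60, standard error 0.66, adjusted p = 4.54e-27). Il6 stood at 31.8, 49.9 and 26.2 CPM against 0.207, 0.602 and 0.286 CPM and Csf1, which encodes the growth factor M-CSF, at 47.8, 57.4 and 35.6 CPM against 0.310, 0.493 and 0.715 CPM. Il6 was seen in 53 members (12.6%). Ccl3 and Ccl4, which encode chemokines of the MIP-1 group, had log2 fold changes of 2.78 (standard error 0.15) and 3.50 (standard error 0.17), and 22 members held 62.5% of the Ccl3 UMIs. Osm, which encodes oncostatin M, and Hgf, hepatocyte growth factor, rose with log2 fold changes of 2.90 (standard error 0.24) and 3.34 (standard error 0.32).

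Genes of basophils and of mast cells were read as separate lists, both chosen with earlier results of these data known, so their counts are a description. Of 18 basophil genes tested, 16 rose, 1 fell and 1 did not pass, with a median log2 fold change of 3.06. Of 8 mast cell genes tested, 3 rose, 1 fell and 4 did not pass, with a median of 0.30. Of the 24 genes on the mast cell list, 12 were in the deposited counts and 8 of these were tested. Tpsab1, Tpsb2, Mcpt4 and Mrgprb2 were not among the 8, so the count rests on a part of the list. Il1rl1, Gzmb and Itgb7 were the 3 that rose. Itgb7, an integrin subunit of mast cell progenitors, overlapped between the groups, at 89.2, 47.4 and 24.4 CPM in members and 37.1, 24.2 and 11.6 CPM in other cells, and had an adjusted p of 0.37 in the fit without the library block. Cma1, which encodes a mast cell chymase, had 10 UMIs in 5 members and was too low to be tested.

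Gzmb, the granzyme B gene, rested on few cells. It stood at 6.37, 29.9 and 75.9 CPM in the members of libraries a, b and c against 1.03, 5.48 and 3.58 CPM (log2 fold change 3.78, standard error 0.24). Of its 95 UMIs in members, 81 lay in library c. Members with 3 or more Gzmb UMIs numbered 0, 2 and 8 in the 3 libraries. Of these 10 cells, 7 were among the 74 members without Prss34 and 3 among the 347 members with it.

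Markers of other lineages were read as a check of the label. Of 15 neutrophil genes tested, 12 fell, 1 rose and 2 did not pass. Of 13 monocyte and dendritic genes, 12 fell and 0 rose. Erythroid genes fell in 8 of 14 cases and rose in 1, lymphoid genes fell in 6 of 8 and rose in 1, and megakaryocyte genes fell in 3 of 10 and rose in 2, Itga2b and Cd9. Stem and multipotent genes rose in 3 of 13 cases and fell in 4, among which Ly6a, the Sca-1 gene, had 5 UMIs in members. Summed over the list, stem and multipotent genes stood at 338, 297 and 340 CPM in members against 273, 269 and 260 CPM. Lymphoid sums were also higher, at 1306, 1168 and 1302 CPM against 840, 905 and 927 CPM. So were megakaryocyte sums, at 535, 517 and 579 CPM against 341, 312 and 365 CPM. Neutrophil, monocyte and dendritic, and erythroid sums were lower in members of each library. Cd74, the invariant chain of MHC class II, had 8 UMIs in members and stood at 406, 382 and 376 CPM in other cells. Car1, a carbonic anhydrase of erythroid cells, had 45 UMIs in 9 members, and Pf4, a platelet chemokine, 44 UMIs in 5 members, all of library c.

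**Figure D3:**
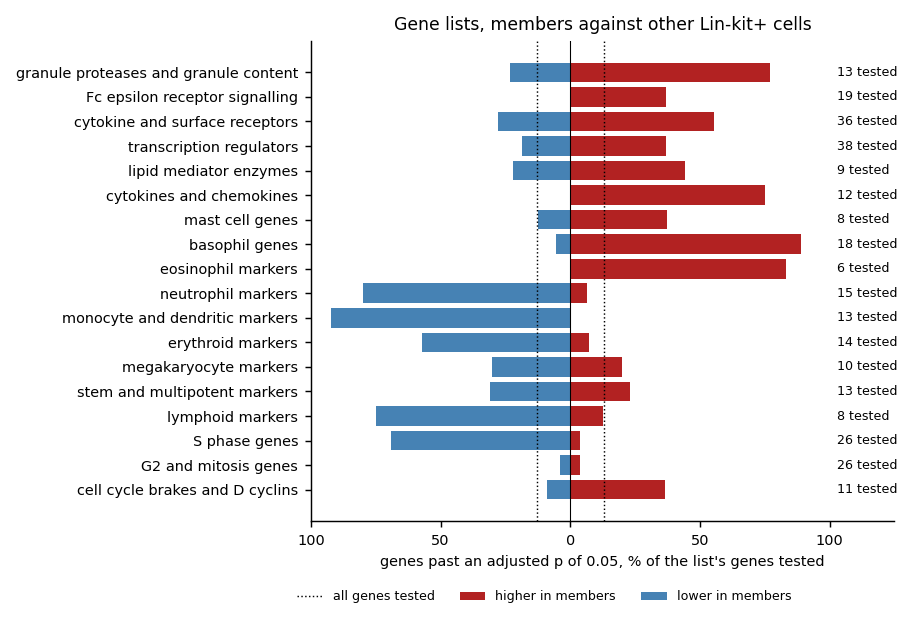
Share of each gene list that passed an adjusted p of 0.05 (x axis, percentage of the genes tested), higher in members to the right and lower to the left, with the shares over all genes tested, 13.2% and 12.9%, as dotted lines. Basophil and cytokine genes lie mostly to the right and neutrophil, monocyte and S phase genes to the left. The eosinophil bar turns to 2 higher and 3 lower of 6 when 20 members with many neutrophil or eosinophil granule UMIs are left out. Other Lin-kit+ cells were not cut in this way.

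A few members carried the granule genes of another lineage in large amounts. The neutrophil genes S100a8, S100a9, Camp and Ngp together had a median of 2 UMIs in the remaining members, but 573 or more in 8 members, and the next highest member held 26. These 8 cells, 1, 1 and 6 in libraries a, b and c, held 91.5% of the 12196 UMIs of these genes in members. Scrublet called 4 of the 8 doublets. Prg2, the eosinophil major basic protein, had 11 or more UMIs in 12 members, 3, 3 and 6 by library, which held 99.7% of its 3557 UMIs in members. Scrublet called 1 of the 12 a doublet. The same 12 cells held 55 of 58 UMIs of Epx, eosinophil peroxidase, and 197 of 201 UMIs of Prg3. No cell belonged to both groups.

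Because of these 20 cells, both lists were read again without them, an alternative chosen after seeing the data. The cells had been picked by UMIs of Prg2 or of the neutrophil genes named above, and other Lin-kit+ cells were not cut in this way. No remaining member held more than 2 Prg2 UMIs, so the turn of Prg2 below follows largely from the cut. The same holds for Prg3, which lay mostly in the same cells. Over all members, Prg2 stood at 1369, 2508 and 1989 CPM against 143, 93.8 and 68.1 CPM in other cells and passed as higher (log2 fold change 4.30, standard error 0.07). Without the 20 cells it passed as lower, with a log2 fold change of -3.94, and Prg3 passed as lower with -2.10, while Epx no longer passed. Of the 6 eosinophil genes tested, 5 rose with them, and 2 rose and 3 fell without them. Siglecf and Alox15 were the 2, and Alox15 lies in the eosinophil and the lipid list. The neutrophil list had 12 falls either way, and its median log2 fold change went from -2.71 to -4.37. That list holds the neutrophil genes by which part of the 20 cells were picked, so the deeper median is no independent reading. The source of these transcripts in the 20 cells was not tested.

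The neutrophil genes of primary granules behaved unevenly. Elane, neutrophil elastase, stood at 322, 786 and 1038 CPM in members against 8669, 8623 and 9388 CPM (log2 fold change -3.69, standard error 0.06). Mpo, myeloperoxidase, fell less, at 2143, 2653 and 2941 CPM against 4194, 4329 and 4625 CPM, and had a UMI in 90.0% of members. Ctsg, the cathepsin G protease, was the gene of the list that rose, at 3732, 4245 and 4106 CPM against 2701, 2821 and 3047 CPM (log2 fold change 0.43, standard error 0.05), and was found in 97.1% of members and 69.3% of other cells. After thinning to 2000 UMIs these shares were 94.0% and 65.5%.

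Genes of DNA synthesis were lower in members, whereas those of mitosis mostly did not pass. Of 26 S phase genes, 18 fell, 1 rose and 7 did not pass, with a median log2 fold change of -0.44. Rrm2, a subunit of ribonucleotide reductase, stood at 102, 135 and 157 CPM in members against 225, 247 and 287 CPM (log2 fold change -0.97, standard error 0.09), Mcm5, of the replicative helicase, at 89.2, 79.9 and 98.4 CPM against 154, 147 and 153 CPM, and Pcna, the clamp of the replication fork, at 137, 115 and 185 CPM against 194, 216 and 232 CPM. The number of falls was 9 of 26 without the library block and 7 of 26 after thinning to 2000 UMIs. Of 26 genes of G2 and mitosis, 1 rose, Ube2c, 1 fell, Birc5, and 24 did not pass, with a median log2 fold change of -0.04. Ube2c lost its call after thinning (adjusted p = 0.0509) and Birc5 without library c (0.079) and without the library block (0.073). After thinning, 0 of the 26 rose and 3 fell, with a median of -0.30. Summed over the lists, S phase genes stood at 2127, 2368 and 2508 CPM in members and 2975, 3050 and 3009 CPM in other cells, and G2 and mitosis genes at 2019, 2136 and 1902 CPM and 1851, 1823 and 2006 CPM.

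Among 11 cell cycle brakes and D cyclins tested, 4 rose, 1 fell and 6 did not pass. Btg2, an antiproliferative gene, stood at 63.7, 74.9 and 100.3 CPM in members against 38.9, 35.8 and 37.0 CPM (log2 fold change 1.18, standard error 0.15). Cdkn1b, which encodes the inhibitor p27, rose with a log2 fold change of 0.92 (standard error 0.25), and Ccng2, cyclin G2, with one of 1.31 (standard error 0.29). Both calls were lost without library c and after thinning to 2000 UMIs (adjusted p = 0.183 and 0.616), where the log2 fold change of Ccng2 was 0.48. Cdkn1b also lost its call with DESeq2 (0.101) and Ccng2 without the library block (0.0979). Ccnd1, cyclin D1, was the gene that fell, with 7 UMIs in members.

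The members were next compared among themselves. In each library they were cut at its median 5-gene level into 209 high and 212 low cells, and the remaining genes were tested between the summed counts. The cut makes a range, not a type, and 17 members lay within 10% of it. Of 2408 genes tested with edgeR, 360 (15.0%) passed, 170 higher (7.06%) and 190 lower (7.89%) in high cells. Without library as a block, 147 passed. The largest rises were those of Poln, Cd200r3, Ccl3, Nucb2, Slpi, Cyp4f18, Sdf2l1, Creld2, Ccr1 and F630028O10Rik. Poln shares exons with Haus3, so reads of both may be mixed.

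Of the UMIs of Cd200r3 in members, 297 lay in high and 48 in low cells, and of those of Ccl3, 169 and 31. Cd200r3 stood at 285, 473 and 384 CPM in the high cells of libraries a, b and c and 28.2, 57.8 and 49.1 CPM in the low cells (log2 fold change 2.97, standard error 0.19, adjusted p = 5.91e-12). Across the 4 level groups of members it went from 9.48, 17.3 and 9.08 CPM in the lowest to 525, 692 and 570 CPM in the highest. Ccl3 stood at 198, 216 and 228 CPM in high and 56.4, 0 and 34.4 CPM in low cells (log2 fold change 2.79, standard error 0.32). Ccl4 and Ccr1 rose with log2 fold changes of 1.66 (standard error 0.26) and 2.0 (standard error 0.27).

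Of 6 genes of IgE receptor signalling tested, 4 rose with the 5-gene level and 0 fell. Fcer1g stood at 1822, 2272 and 2088 CPM in high and 868, 906 and 659 CPM in low cells (log2 fold change 1.31, standard error 0.11). Lat and Lat2 rose with log2 fold changes of 1.10 (standard error 0.23) and 0.87 (standard error 0.15). Lat lost its call without library c (adjusted p = 0.147), after thinning (0.202) and with DESeq2 (0.192), and Lat2 with DESeq2 (0.0512). After thinning, 2 of 5 genes of the list rose. Alox5 rose from 95.9, 80.0 and 96.5 to 205, 239 and 199.8 CPM and Ctsg from 2853, 3177 and 2718 to 4872, 5614 and 5969 CPM. Sdf2l1 and Creld2, which encode proteins of the endoplasmic reticulum where secreted proteins fold, stood at 1068, 1122 and 1006 and 168, 216 and 173 CPM in high cells against 310.1, 293 and 175 and 45.1, 48.9 and 39.3 CPM in low cells.

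Of 3 stem and multipotent genes tested, 2 fell and 1 did not pass. The number of falls was 1 of 3 without the library block, and after thinning to 2000 UMIs it was 0 of 1. Cd34 stood at 80.5, 45.6 and 83.4 CPM in high and 124, 124 and 115 CPM in low cells (log2 fold change -0.75, standard error 0.25, adjusted p = 0.0398), and its call was lost when any 1 library was left out. Sox4, a factor of early progenitors, stood at 29.3, 28.5 and 57.1 CPM against 101, 80.0 and 90.0 CPM, and Myc at 36.6, 34.2 and 61.5 CPM against 141, 107 and 76.9 CPM, with adjusted p = 0.0125 and 0.0223. Both lost their calls without library a or b. Lmo4, which was higher in members than in other cells, fell by 0.69 on the log2 scale from low to high members (standard error 0.11, adjusted p = 4.03e-05), at 761, 803 and 762 CPM in high and 1139, 1417 and 1088 CPM in low cells. Gata2 was not among the genes that passed, with 379, 278 and 178 CPM in the lowest level group and 486, 377 and 381 CPM in the highest.

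Of 17 S phase genes tested, 3 rose, 0 fell and 14 did not pass. Rrm2 rose with a log2 fold change of 0.97 (standard error 0.22), a call that was lost without library b. Of 5 brakes and D cyclins tested, 1 rose, 1 fell and 3 did not pass. Ccnd3, cyclin D3, rose from 78.9, 120.0 and 55.6 to 190.2, 211 and 141 CPM, whereas Ccnd2, cyclin D2, fell from 141, 129 and 173 to 124, 74.0 and 98.8 CPM, with adjusted p = 0.000934 and 0.022. The call of Ccnd2 was lost without library b or c. That of Ccnd3 was lost without library c (adjusted p = 0.0503). Neither gene passed without the library block or with DESeq2.

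The largest falls with the 5-gene level were those of Camp, S100a8, Ngp, S100a9, Wfdc21, Elane, Lyz2, Cisd1, Ctla2a and Ifi47, of which the last 3 lost their calls without library c. Of 10 neutrophil genes tested, 7 fell and 2 rose. Without the 20 members with many neutrophil or eosinophil granule UMIs, 2 of 9 fell and 3 rose. S100a8 stood at 102, 262 and 1186 CPM in high and 3344, 2270 and 6128 CPM in low cells (log2 fold change -3.19), and without those cells its log2 fold change was 0.085 and that of Ngp 0.36, neither of which passed. Camp, S100a9 and Lyz2 also lost their calls. Elane and Prtn3 were the 2 that still fell, from 457, 1213 and 1574 to 146, 239 and 318 CPM and from 609, 858 and 1041 to 234, 370.1 and 417 CPM over all members. These levels include the 20 cells, and 22 members held 68.4% of the Elane UMIs. Ms4a3, a gene of granulocyte progenitors, rose from 772, 702 and 689 to 1639, 1572 and 1473 CPM.

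**Figure D4:**
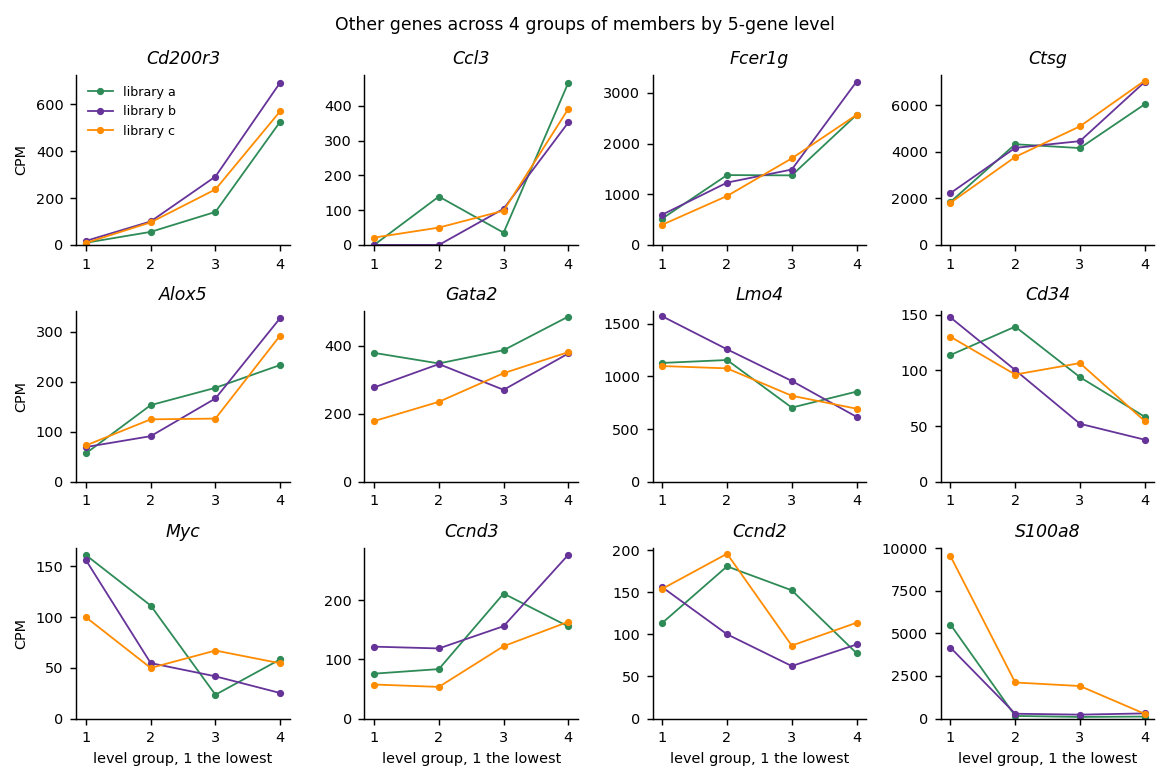
CPM of 12 genes outside the rule (y axis, from 0) in 4 level groups of members, ordered by 5-gene level within each library (x axis, 1 the lowest), 1 line per library. Cd200r3, Fcer1g, Ctsg and Alox5 climb, Lmo4 and Cd34 decline, and S100a8 lies mostly in group 1, where it rests on few cells.

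Cutting members by their protease share instead gave much the same groups, with 191 of the 209 high cells in common, so it is no independent comparison. A share near the median was frequent, and 182 members lay within 10% of their cut. Of 2377 genes tested, 247 (10.4%) passed, 119 higher (5.01%) and 128 lower (5.38%) in cells with a high protease share, and 95 passed without library as a block. The largest rises were those of Poln, Slpi, Nucb2, Ccl3, Cd200r3, Hvcn1, Sdf2l1, Ccl4, Creld2 and Ccr1. Slpi, a secreted inhibitor of serine proteases, stood at 129, 214 and 178 CPM against 11.5, 14.7 and 22.3 CPM (log2 fold change 3.18, standard error 0.28), and Hvcn1, a proton channel, at 93.0, 142 and 109.5 CPM against 17.2, 14.7 and 27.5 CPM.

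The largest falls with the protease share were those of Ifi47, Tmem176b, Ifngr1, Khk, Atic, Myc, Sdsl, Tmem176a, Ruvbl2 and Pdcd4. Tmem176b, a membrane protein gene, stood at 78.7, 61.1 and 84.7 CPM in high and 218, 162 and 228 CPM in low cells (log2 fold change -1.47, standard error 0.19, adjusted p = 0.000243). Ifngr1, a subunit of the interferon gamma receptor, stood at 78.7, 91.6 and 90.9 CPM against 155, 171 and 219.7 CPM, and Myc at 35.8, 35.6 and 55.8 CPM against 143, 113 and 82.4 CPM. In each of these 3 the groups did not overlap across libraries, but the genes were picked for large falls of the same sign in each library. Ifngr1 lost its call without library c (adjusted p = 0.124) and with DESeq2 (0.0969), and Myc lost its call without library a (0.0538) or b (0.11). Of the other large falls, those of Ifi47, Khk, Sdsl, Atic and Pdcd4 no longer passed without library c, nor those of Atic, Pdcd4 and Tmem176a without library b. The rise of Ccr1 no longer passed without library c. Ifi47 shares exons with Olfr56.

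Cell by cell, the gene most like the 5-gene level over the 421 members was Tmsb4x, a thymosin gene, with a Spearman correlation of 0.75 between both as shares of the cell's UMIs, among 3635 genes found in at least 10% of members. Fcer1g (0.67), Sdf2l1 (0.65), Manf (0.65), Ctsg (0.63), Crip1 (0.62), Hspa5 (0.61), Tyrobp (0.61), Cd200r3 (0.59) and Anxa1 (0.53) followed. Manf and Hspa5 encode proteins of the endoplasmic reticulum, and Tyrobp a signalling adaptor. The most negative values were those of Eef1a1 (-0.58), a translation factor, and Rpsa (-0.56) and Rps3 (-0.55), ribosomal protein genes. These are descriptions over cells of 3 libraries. Both shares have the cell's UMIs as their denominator, and a high 5-gene share leaves less room for other transcripts.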

How the data were processed

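Lin-kit+ and reporter-positive bone marrow cells were profiled with the Chromium 3′ kit (version 2 chemistry). Per the labels, reads were processed with Cell Ranger 1.3 and 2.1 and Seurat 2.3.4 (roles not given in the sources used here) against mm10, and the authors deposited 1 table of UMI counts, not normalized, in which each gene is seen in 3 or more cells. These counts were used as they stand. Libraries were matched to populations by their cell numbers. All cells were kept, doublets included (Scrublet in scanpy 1.11.5).

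The members and the gene lists were chosen with earlier results of these data known. Counts were summed per library (6 sums per test), the 5 rule genes were taken out, and sums were compared with edgeR 4.0.16 (TMM, its filter on low counts, quasi-likelihood test, library as a block, R 4.3.3), with Benjamini-Hochberg adjustment over all genes tested. The library block comes from the design, since both sums of a library share its cells' capture. DESeq2 1.42.0 was an alternative. Each library was also left out, cells with at least 2000 UMIs were thinned to that number, and the rule, doublets, filters and scaling were varied.

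Named genes were the 10 largest fitted rises and falls per test among genes past the threshold with at least 50 UMIs and the same sign in each library, up to 8 genes per list by UMIs, and the 10 genes each way most like the 5-gene level. Named after their values were seen were Gata2, Gata1, Runx1, Cebpa, Ikzf2, Ets1, Gfi1, Spi1, Il3ra, Csf2rb, Csf2rb2, Ccr1, Csf1r, Csf3r, Lat, Hdc, Slc18a2, Il4, Hgf, Ccng2, Fyn, Gab2, Stx3, Cma1, Syk, Mcpt4, Mrgprb2 and, among members, Prtn3. A fold against a group at 0 used a floor of 3 counts over that group. Promoter sequences are those of RefSeq, and same-strand exon overlaps those of GENCODE M21, both for GRCm38.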

Additional observations from a re-analysis of the deposited data

How the results depend on the processing

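The mean share of members stayed between 3.20% and 4.02% under the other rules and cell filters, and between 3.45% and 4.11% with each library left out. Members against other cells gave 1447 passing genes with DESeq2 and 1493 after thinning to 2000 UMIs, against 2630, and between 1241 and 2212 with each library left out, lowest without library c. With library totals in place of TMM, 57.5% of passing genes were higher, against 50.6%. Without a filter on low counts 43.4% were. High against low 5-gene level gave 101 with DESeq2, 147 with no library block, 160 after thinning and 235 with at least 20 UMIs in the rule, against 360, and between 179 and 321 with each library left out. The protease share gave 74 with DESeq2, 95 with no library block, 159 when cut at 50%, 91 with at least 20 UMIs and 135 after thinning, against 247, and between 68 and 299 with each library left out, lowest without library c. The cause of these differences was not tested. Fits with a library left out, with at least 20 UMIs or after thinning also had fewer samples or cells. With library totals, 59.3% and 59.6% of the genes passing for the 5-gene level and the protease share were higher, against 47.2% and 48.2%.

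Without the 20 members rich in granule genes of other lineages, an alternative chosen after seeing the data, the log2 fold change between members and other cells turned to -3.94 for Prg2, -2.10 for Prg3 and -0.16 for Epx, and that between high and low 5-gene level to 0.085 for S100a8 and 0.36 for Ngp. Prg2, S100a8 and Ngp were among the genes that picked these members, and other Lin-kit+ cells were not cut in this way. Kit, which did not pass, turned from 0.06 to -0.069 with at least 4 genes in the rule, -0.0012 without the filter, -0.11 with at least 20 UMIs, -0.085 after thinning, and ranged from -0.13 without library b to 0.18 without library c. Of 144 results on named genes, calls were lost for 17 with DESeq2 (which gave no adjusted p for 18 others), for 21 without library c, 12 without library b, 5 without library a, 9 after thinning and 14 without the library block, those of Gfi1, Spi1, Cd34, Itgb7, Birc5 and Ccng2 between members and other cells and of Cd34, Myc, Ccnd3 and Ccnd2 between levels among them. Few members limited depth, since their sums in the smallest library came from 57 cells, and a gene of a few UMIs was not testable among members.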
